A study of Mus musculus with 19 samples.

Results

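Cholesterol synthesis, uptake and efflux were followed through 31 genes in tumor cells that had grown in lean or obese mice. The genes were chosen by their known role. They were 18 enzymes of synthesis, 4 genes of the control of synthesis by the transcription factor SREBP-2, 5 genes of uptake, transport and storage, and 4 genes of efflux driven by the liver X receptors (LXR). The deposited table holds 39017 genes, of which 16352 passed the filter on low counts, and all 31 genes passed it. The tumors were grown from E0771, a breast cancer line that arose in the C57BL/6 strain, here marked with the fluorescent protein mCherry. Per the labels, 50000 cells were injected at a mammary fat pad site in C57BL/6 mice that were lean or obese, and cells with mCherry were sorted from the dissociated tumors. The sample names pair lean with chow and obese with a high-fat diet (HFD). The midpoint (day 14) gave 4 lean and 5 obese libraries. The endpoint (day 21) gave 5 lean libraries, of which 4 were used, and 5 obese libraries. The sources used here give no age, sex, genotype or time on diet for the mice. All 4 groups share 1 implanted line. The labels do not say whether each library came from its own animal, so p-values measure the spread between these samples, which may in part be technical.

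Cholesterol is built from acetyl-CoA by the mevalonate pathway, which ends in farnesyl pyrophosphate, and by the sterol steps that lead from squalene through lanosterol to cholesterol. When sterols are low, Scap escorts SREBP-2 (gene Srebf2) from the endoplasmic reticulum to the Golgi, where it is cut and freed to activate the genes of synthesis. Insig proteins hold Scap back when sterols are plentiful, and Insig1 is itself a target of SREBP-2. Oxysterols activate the receptors LXR-alpha (Nr1h3) and LXR-beta (Nr1h2). These induce the cholesterol exporters Abca1 and Abcg1 and the ubiquitin ligase Mylip, which limits lipoprotein uptake.

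Promoters of the enzymes and of the efflux genes were compared because SREBP-2 acts on the enzymes and LXR on the exporters. SREBP proteins bind a sterol regulatory element, searched as TCACNCCAC, next to NF-Y, which binds CCAAT. Windows from 250 bases before to 50 after the annotated start were taken from RefSeq (GRCm38.p6, the same assembly as mm10) and matched 25 of the 31 genes by symbol, without Fdps, Fdft1, Sqle, Npc1, Stard4 and Abcg1. Both strands were searched. CCAAT stood in the windows of 14 of 15 synthesis genes with a window, against 41.1% of all 27025 genes with a window, and in 0 of 3 efflux genes. These 3 were the exporter Abca1 and the receptor genes Nr1h2 and Nr1h3. CCAAT also stood in 3 of 4 control windows and 3 of 3 uptake and transport windows, so it was not particular to the enzymes. The uptake and transport windows with CCAAT include that of Mylip, which LXR induces. For Nr1h3 the nearest annotated start lay 7718 bases from the deposited gene start. A gene with several annotated starts was counted if the window of any of them matched. Pmvk and Dhcr7 held CCAAT only in the window of another annotated start, not of the one nearest the deposited gene start. The Sp1 motif GGGCGG stood in 14 of 15 synthesis windows against 38.2% of all, and in 1 of 3 efflux windows. It also stood in 4 of 4 control windows and 3 of 3 uptake and transport windows. TCACNCCAC stood in 1 of 15 synthesis windows, that of Hmgcs1, against 1.44% of all. For the LXR motif DR4 only an exact direct repeat of GGTCA with 4 bases between was searched. It stood in none of the 25 windows and in 0.052% of all. Repeats with other letters or spacing were not searched, so this count cannot say that a promoter lacks an LXR element. The Abca1 bases below hold tgaccggtagtaacccc, which starts with the complement of GGTCA. Each motif was counted whether or not it overlapped another, and a match describes letters only. Bases before the start are shown, 5′ to 3′ on the strand of the gene and only outside the deposited gene, for Hmgcs1, for 3 sterol enzymes whose endpoint levels separated lean from obese libraries, and for Abca1 as the contrast. They span 150 bases each, and 133 in Lss. Their positions are chr13:119690201-119690350 for Hmgcs1 (plus strand), chr10:76531455-76531587 for Lss (plus strand), chrX:72918371-72918520 for Nsdhl (plus strand), chr9:42264301-42264450 for Sc5d (minus strand) and chr4:53159896-53160045 for Abca1 (minus strand). Capitals mark CCAAT or its complement ATTGG, and in Hmgcs1 also TCACCCCAC.
Hmgcs1: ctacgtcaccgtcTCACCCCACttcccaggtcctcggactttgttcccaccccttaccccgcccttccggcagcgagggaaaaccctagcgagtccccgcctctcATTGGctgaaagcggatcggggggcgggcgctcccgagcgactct
Lss: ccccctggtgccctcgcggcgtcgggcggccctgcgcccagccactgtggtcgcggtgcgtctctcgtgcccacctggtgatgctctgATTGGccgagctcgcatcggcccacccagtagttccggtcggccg
Nsdhl: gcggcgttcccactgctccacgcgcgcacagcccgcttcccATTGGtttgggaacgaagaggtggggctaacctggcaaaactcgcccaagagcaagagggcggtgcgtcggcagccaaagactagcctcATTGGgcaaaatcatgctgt
Sc5d: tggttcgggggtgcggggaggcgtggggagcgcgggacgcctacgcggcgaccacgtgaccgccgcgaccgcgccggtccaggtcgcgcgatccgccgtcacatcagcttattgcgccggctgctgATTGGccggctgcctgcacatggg
Abca1: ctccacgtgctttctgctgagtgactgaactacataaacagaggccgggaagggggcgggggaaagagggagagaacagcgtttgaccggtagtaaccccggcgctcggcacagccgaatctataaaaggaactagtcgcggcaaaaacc
In these bases Nsdhl carried 2 CCAAT motifs. Hmgcs1, Lss and Sc5d carried 1 each, and Abca1 carried none. The bases outside the gene of Acat2, Cyp51, Dhcr7 and Insig1, which were also separated at the endpoint, are 101 to 128 long and held no CCAAT either. In the full windows CCAAT began at -29 from the start in Cyp51, inside the deposited gene, and at -216 in Insig1. Its presence in the bases outside the gene alone thus did not divide the separated genes from Abca1.

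The 18 libraries used held 44174080 to 56996252 counts each. Lean endpoint replicate 4 held 11889188 counts, with 0 of 8411 well-counted genes of chromosomes 6 to 19, X and M covered, and was left out. The share of counts from the mitochondrial genome was 44.7% in lean endpoint replicate 1 and 17.1% to 24.4% in the other 8 endpoint libraries. At the midpoint it was 8.95% to 12.3% in lean and 5.79% to 8.06% in obese libraries, so that it differed, without overlap, between the diets at the midpoint and between the days. Obese endpoint replicate 4 had a summed level of 18 macrophage markers of 853 CPM (counts scaled to a library total of 1000000), against 160 to 273 CPM in the other 4 libraries of its group. The slope on transcript GC content of log2 CPM, taken relative to each gene's mean over the 18 libraries, was highest in obese midpoint replicates 2 and 3. It was 1.71 and 1.35 per 10 percentage points there. Of 10 epithelial markers 2 passed the filter, 1 with a higher and 1 with a lower estimate in obese than in lean midpoint libraries. Krt8, 1 of these 2, was at 17.5 to 64.8 CPM in the 18 libraries. By contrast Krt18, its usual keratin partner in mammary epithelium, was near absent and did not exceed 0.0975 CPM. Adipoq, the defining adipocyte hormone, did not exceed 0.0975 CPM. Ptprc, the pan-leukocyte antigen, was at 0.672 to 29.6 CPM, Adgre1 at 4.03 to 40.9 CPM and Csf1r at 4.69 to 22.9 CPM. Pecam1 was at 2.23 to 9.04 CPM and Col1a1 at 0.504 to 16.9 CPM. Col1a1 is 1 of 12 fibroblast markers, whose summed level was 1386 to 2932 CPM in the 18 libraries. In such bulk samples fewer cells of a type and less RNA per cell cannot be told apart.

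Levels between genes were compared per length, as TPM, which scales counts by gene length and library total and was averaged over the 18 libraries. The lysosomal cholesterol carrier Npc2 (129 TPM) and the farnesyl pyrophosphate synthase Fdps (124 TPM) had the highest levels, followed by the sterol desaturase Sc5d (84.4 TPM). Mvd, Pmvk and the cholesterol-esterifying enzyme Soat1 were at 65.0 to 68.1 TPM. The exporter Abcg1 was at 35.4 TPM, while Abca1 was at 1.47 TPM. Mylip (0.829 TPM) and the isopentenyl isomerase Idi1 (1.75 TPM) were also low. Of the LXR genes, Nr1h2 was at 30.9 TPM and Nr1h3 at 10.2 TPM. Among the SREBP-2 control genes, Srebf2 was at 53.2 TPM, Insig1 at 32.8 TPM, Scap at 30.4 TPM and Insig2 at 9.22 TPM.

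At the endpoint the synthesis genes were at lower levels in tumor cells from obese mice, although no single gene passed the test. All 18 had a log2 fold change (obese over lean) below 0, from -1.09 for Acat2 to -0.06 for Ebp, with a median of -0.60. Over all genes tested 50.7% were below 0 and the median was -0.00485. In the quasi-likelihood test of edgeR, with p adjusted by Benjamini-Hochberg over all 16352 genes, 0 of the 31 genes were called, against 0.00612% of all genes (1 gene). Unadjusted p was under 0.05 for 12 of the 31 genes by edgeR, beside 800 of all 16352 genes. DESeq2 and limma-voom also called 0 of the 31 genes, beside 0.0795% and 0% of all genes. In 9 of 18 synthesis genes every obese library lay below every lean library, and Insig1 made this 10 of the 31 genes. Over all genes tested 1.33% were separated in this direction. Markers of other cell types also differed between these groups, and their part in the difference was not tested. The summed level of 8 adipocyte markers, of which 6 were under 0.2 CPM on average, was 18.9 to 80.04 CPM in lean and 10.8 to 17.7 CPM in obese endpoint libraries, without overlap. The 2 adipocyte markers tested went opposite ways, 1 above 0 and 1 below 0, both at an unadjusted edgeR p under 0.05 (median 1.95). The lower one, Fabp4, a fatty acid carrier of fat cells that macrophages also make, was 2.96-fold lower (edgeR, adjusted p = 0.455). All 5 tested erythroid markers were above 0 with an unadjusted p under 0.05, at summed levels of 0.827 to 3.55 CPM in lean and 2.45 to 15.1 CPM in obese libraries, and 9 of 12 fibroblast markers were above 0 (median 0.67). Without lean endpoint replicate 2 the count of synthesis genes below 0 was 17, since Ebp then stood above 0. When each of the 9 endpoint libraries was left out in turn, 9 to 12 synthesis genes were separated, against 1.69% to 4.34% of all genes.

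**Figure D1:**
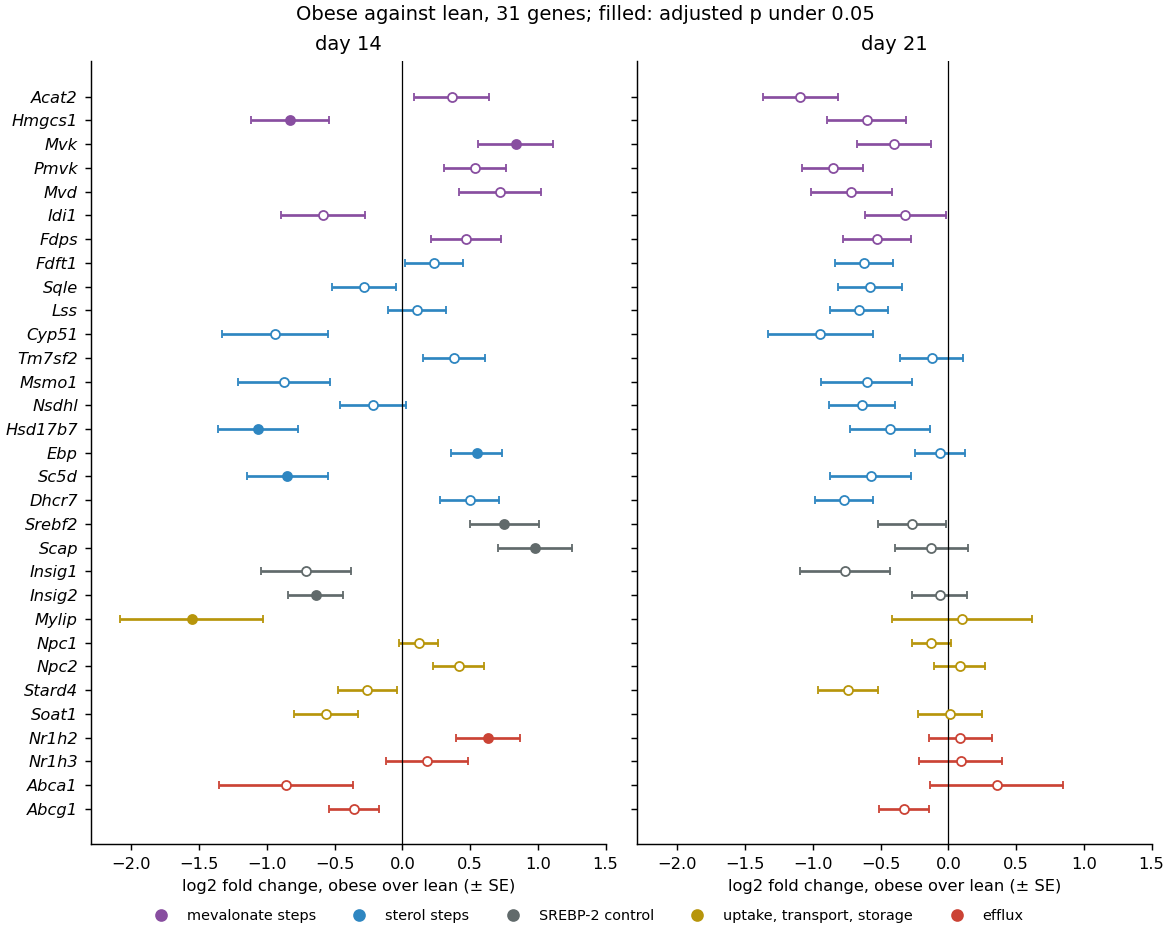
Log2 fold change of obese over lean (horizontal axis, with SE) for each of the 31 genes at day 14 and day 21, coloured by role; filled points have an adjusted p under 0.05. At day 21 all 18 synthesis genes lie below 0, from -1.09 to -0.06, and none is filled, whereas at day 14 the genes lie on both sides of 0 and 10 are filled.

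Among the mevalonate steps, Acat2, the thiolase that joins acetyl-CoA units (mm10 chr17:12942890-12960747), was at 50.8, 51.3, 35.2 and 37.1 CPM in lean endpoint replicates 1, 2, 3 and 5. In obese endpoint replicates 1 to 5 it was at 24.1, 27.3, 21.9, 15.7 and 13.2 CPM. Its highest obese library lay below its lowest lean library, and the log2 fold change was -1.09 ± 0.28 (SE; edgeR, adjusted p = 0.618), a 2.13-fold lower level. Pmvk, the phosphomevalonate kinase, was at 44.6, 56.4, 43.99 and 40.3 CPM in the lean and at 26.2, 34.0, 23.5, 25.3 and 19.2 CPM in the obese libraries. These groups did not overlap either (-0.85 ± 0.23 SE, adjusted p = 0.622). The other 5 mevalonate genes overlapped between groups, with log2 fold changes of -0.71 ± 0.30 (SE) for the decarboxylase Mvd, -0.60 ± 0.29 for the HMG-CoA synthase Hmgcs1, -0.53 ± 0.25 for Fdps, -0.40 ± 0.27 for the mevalonate kinase Mvk and -0.32 ± 0.30 for Idi1. Hmgcs1 had the widest spread between lean libraries of the 7, at 99.2 to 266 CPM, against 108 to 144 CPM in the obese.

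Of the 11 sterol genes, 7 were separated. Cyp51, the lanosterol demethylase, was at 218, 153, 138 and 135 CPM in lean and at 91.6, 104, 79.3, 80.003 and 63.4 CPM in obese endpoint libraries. This was a log2 fold change of -0.94 ± 0.39 (SE, adjusted p = 0.989), and lean replicate 1 stood highest. Dhcr7, the final reductase of the pathway, was at 42.4, 33.7, 25.9 and 25.3 CPM in lean and at 20.2, 22.2, 18.9, 15.3 and 16.7 CPM in obese libraries (-0.77 ± 0.22 SE, adjusted p = 0.765). Lss, which closes the sterol rings, was at 44.7, 57.2, 60.8 and 53.3 CPM in lean and at 36.3, 40.5, 30.7, 32.8 and 31.02 CPM in obese libraries. Squalene epoxidase (Sqle) ranged from 127 to 164 CPM in lean and from 80.8 to 117 CPM in obese libraries. The demethylation enzymes Msmo1 (163 to 220.4 against 91.3 to 142 CPM) and Nsdhl (70.3 to 97.5 against 40.1 to 70.1 CPM) and the desaturase Sc5d (143 to 211 against 99.5 to 129 CPM) were also separated, by the least in Nsdhl. Squalene synthase (Fdft1, -0.63 ± 0.21 SE) and Hsd17b7, a further demethylation enzyme (-0.43 ± 0.30), overlapped between groups. Tm7sf2, a sterol reductase (-0.12 ± 0.23), and the isomerase Ebp (-0.06 ± 0.19) had values near 0. Fdft1 shares 767 of its 2860 bases with Ctsb on the opposite strand, and whether counting used strand is not stated in the sources used here. Tm7sf2 shares 532 of 3484 bases with Vps51 on the same strand, where strand cannot separate the reads. Reads of both pairs may be mixed.

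**Figure D2:**
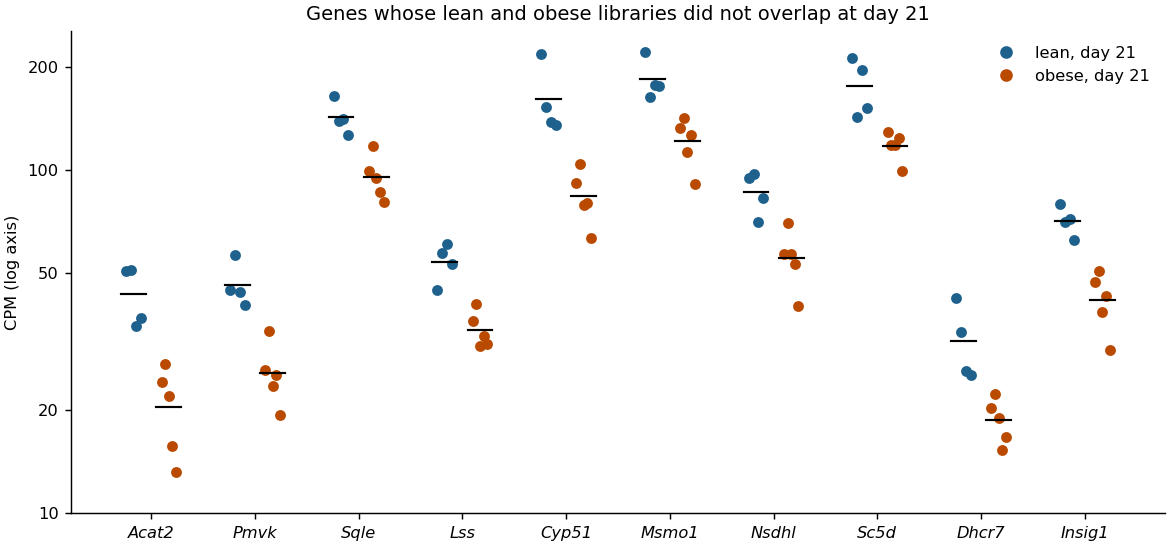
CPM on a log axis of the 10 genes whose lean (blue) and obese (orange) endpoint libraries did not overlap; each point is 1 library and each bar a group mean. In every gene the 5 obese points lie below the 4 lean points; for Acat2 the lean points span 35.2 to 51.3 CPM and the obese points 13.2 to 27.3 CPM.

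The control genes differed among themselves at the endpoint. Insig1 was at 79.7, 70.3, 71.8 and 62.5 CPM in lean and at 47.1, 50.8, 38.6, 42.9 and 29.9 CPM in obese libraries, with no overlap (-0.76 ± 0.33 SE, adjusted p = 0.989). Srebf2 (-0.27 ± 0.25), Scap (-0.13 ± 0.27) and Insig2 (-0.07 ± 0.20) overlapped between groups and their differences were close to or under 1 SE. Of the uptake and transport genes, Stard4, a cytosolic sterol carrier, was at 35.8, 14.4, 27.7 and 23.8 CPM in lean and at 16.9, 15.0005, 13.03, 13.4 and 17.8 CPM in obese libraries. Lean replicate 2 lay among the obese values, and the log2 fold change was -0.74 ± 0.22 (SE, adjusted p = 0.888). Soat1 (0.01 ± 0.24), the lysosomal pair Npc1 (-0.13 ± 0.14) and Npc2 (0.08 ± 0.19) and Mylip (0.10 ± 0.51) had differences under 1 SE.

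The efflux genes lay on both sides of 0 at the endpoint. Abca1 was at 9.39, 3.66, 13.8 and 12.7 CPM in lean and at 6.86, 5.31, 8.94, 28.2 and 14.0 CPM in obese libraries (0.36 ± 0.49 SE), with obese replicate 4 far above the rest. Nr1h3 (0.09 ± 0.31) and Nr1h2 (0.09 ± 0.23) were close to 0, and Abcg1 was at -0.33 ± 0.18. All 4 efflux genes overlapped between groups, 3 of 4 had values above 0, and their median was 0.09. Without obese endpoint replicate 4 that median was -0.19 with 3 of 4 below 0, and without lean replicate 1 as well it was -0.15 with 4 of 4 below 0.

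As means over genes, the synthesis arm of the 4 lean endpoint libraries was at 5.65 ± 0.058 log2 CPM (mean ± SD), that of the 5 obese ones at 5.07 ± 0.20, and the ranges of 5.58 to 5.72 and 4.79 to 5.31 did not overlap. The efflux arm was at 4.55 ± 0.12 in lean and 4.58 ± 0.42 in obese endpoint libraries, and the lean range lay inside the obese range. The difference of synthesis minus efflux was therefore 0.61 lower in obese libraries, at 0.49 ± 0.56 against 1.10 ± 0.17, and its ranges overlapped. It was 0.33 lower without lean replicate 1 and obese replicate 4. At the midpoint the synthesis arm was at 5.63 ± 0.24 (4 lean libraries) and 5.50 ± 0.35 (5 obese libraries). The efflux arm was at 4.83 ± 0.23 and 4.69 ± 0.41, and synthesis minus efflux differed by 0.0092 between the diets. That near-zero difference moved with the setting. Obese libraries were 0.41 higher with a correction for transcript GC content and gene length, and 0.48 higher with Abca1 and Abcg1 alone as the efflux arm. They were 0.76 higher with Mylip added to these, and 0.49 higher without obese midpoint replicates 2 and 3. Both arms overlapped between diets at the midpoint. These arm values are descriptions and carry no test.

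**Figure D3:**
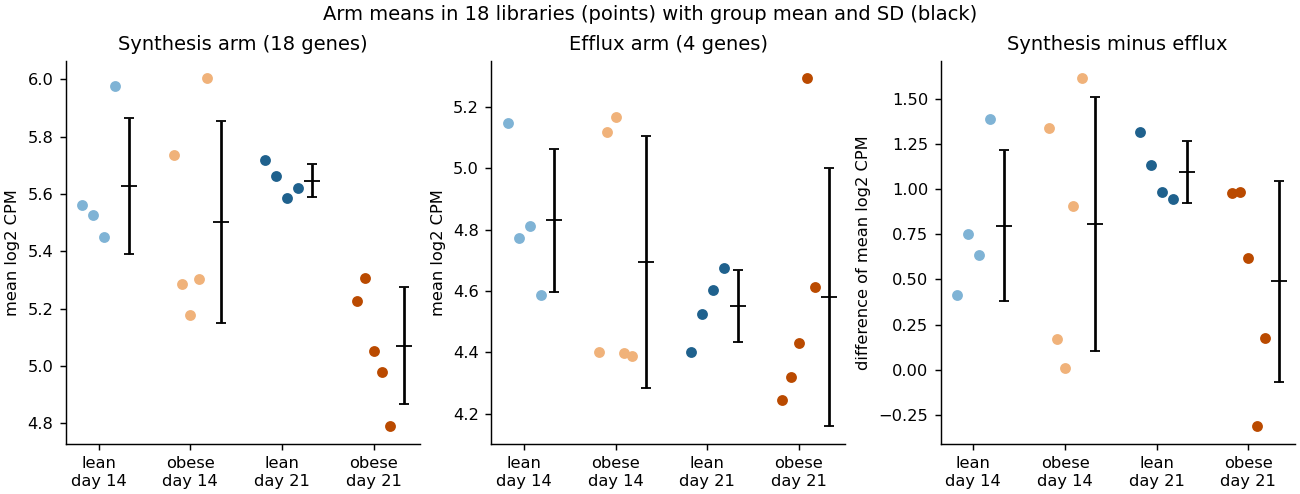
Mean log2 CPM of the 18 synthesis genes, of the 4 efflux genes, and the difference of these means (vertical axes) in each of 18 libraries by group; points are libraries and black bars the group mean with SD. The obese day 21 libraries lie at 4.79 to 5.31 in the synthesis panel, below the lean day 21 libraries at 5.58 to 5.72, whereas the groups overlap in the other panels.

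At the midpoint the pathway did not move one way: 10 of the 31 genes were called between obese and lean, 5 higher and 5 lower, beside 29.5% of all genes tested (16.7% higher and 12.8% lower). The share of the 31 genes was close to that background. Of all genes called 56.5% were higher, 42.2% without the genes of the mitochondrial genome and 33.2% with no filter on low counts. Without the mitochondrial genome, whose share of counts was lower in obese midpoint libraries, 7 of the 31 genes were called, beside 24.8% of all genes. Among the enzymes, Mvk (0.84 ± 0.28 SE, adjusted p = 0.0349) and Ebp (0.55 ± 0.19, adjusted p = 0.0378) rose in obese libraries. Hsd17b7 (-1.07 ± 0.30, adjusted p = 0.0304), Sc5d (-0.85 ± 0.30, adjusted p = 0.041) and Hmgcs1 (-0.83 ± 0.29, adjusted p = 0.0409) fell. In the control group Scap (0.98 ± 0.27, adjusted p = 0.0304) and Srebf2 (0.75 ± 0.26, adjusted p = 0.0379) rose and Insig2 (-0.64 ± 0.20, adjusted p = 0.0319) fell. Nr1h2 rose (0.63 ± 0.23, adjusted p = 0.0488) and Mylip fell (-1.56 ± 0.53, adjusted p = 0.0375). The other 21 genes did not pass, with Abca1 at -0.86 ± 0.49 and Abcg1 at -0.36 ± 0.18.

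Scap was at 84.9, 69.8, 76.7 and 122 CPM in lean midpoint replicates 1 to 4 and at 108, 249.7, 226, 129.8 and 157 CPM in obese midpoint replicates 1 to 5. Hmgcs1 was at 42.5, 60.8, 68.4 and 70.9 CPM in lean and at 59.5, 21.7, 18.7, 34.0 and 36.9 CPM in obese midpoint libraries. For both genes obese replicates 2 and 3 stood farthest from the lean libraries, and the groups overlapped. Mylip was at 1.98, 1.82, 2.16 and 0.491 CPM in lean and at 0.903, 0.625, 0.439, 0.548 and 0.217 CPM in obese libraries, so that lean replicate 4 lay among the obese values. Abcg1 was the 1 gene of 31 whose midpoint groups did not overlap, at 116, 97.9, 85.0 and 92.9 CPM in lean and 75.7, 72.8, 83.4, 84.3 and 65.5 CPM in obese libraries. Over all genes 8.04% were separated, 3.14% in that direction. The number of genes called was 0 when replicate 2 or 3 of the lean midpoint, or 2 or 3 of the obese midpoint, was left out alone, 4 without lean midpoint replicate 1 and 3 without obese midpoint replicate 5. It was 19 without obese midpoint replicate 1. The share of all genes called moved likewise, to 0% in those 4 fits with 0 calls, to 15.6% and 16.1% without lean replicate 1 and obese replicate 5, and to 48.8% without obese replicate 1.

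The direction of the midpoint difference ran with the GC content of the transcript. The 5 genes that rose had 50.9% to 60.6% GC and the 5 that fell 42.9% to 49.6%. Of the 12 genes under 48% GC, 11 had log2 fold changes below 0 (median -0.73), while of the 11 genes at 51% or more, 10 were above 0 (median 0.53). Across the 31 genes Pearson's r of log2 fold change with GC was 0.76 at the midpoint and 0.15 at the endpoint, as a description over genes that share their libraries. The slope of log2 CPM on GC was taken after subtracting each gene's mean over the 18 libraries, so its sign is relative to the other libraries. Per 10 percentage points it was 0.28 ± 0.20 (mean ± SD) over the 4 lean midpoint libraries and 1.05 ± 0.53 over the 5 obese ones. At the endpoint it was -0.63 ± 0.38 in lean and -0.77 ± 0.18 in obese libraries. With a correction for transcript GC content and gene length, the share of all genes called at the midpoint went from 29.5% to 7.16%. None of the 10 calls among the 31 genes remained, and 2 other genes were called: Npc1 rose (0.62, adjusted p = 0.037) and Abcg1 fell (-0.61, adjusted p = 0.0447). The log2 fold changes of the 10 became smaller to different degrees: Mylip was at -1.56 before and -1.45 after and Ebp at 0.55 and 0.42, whereas Scap went from 0.98 to 0.27, Hmgcs1 from -0.83 to -0.30 and Srebf2 from 0.75 to 0.10. Nr1h2 went from 0.63 to -0.15. All 4 efflux genes were then below 0 at the midpoint, with a median of -0.47, and the synthesis median was 0.03. At the endpoint with this correction the synthesis median was -0.62, 17 of 18 synthesis genes were below 0, and 11 of them were separated, beside 1.3% of all genes.

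**Figure D4:**
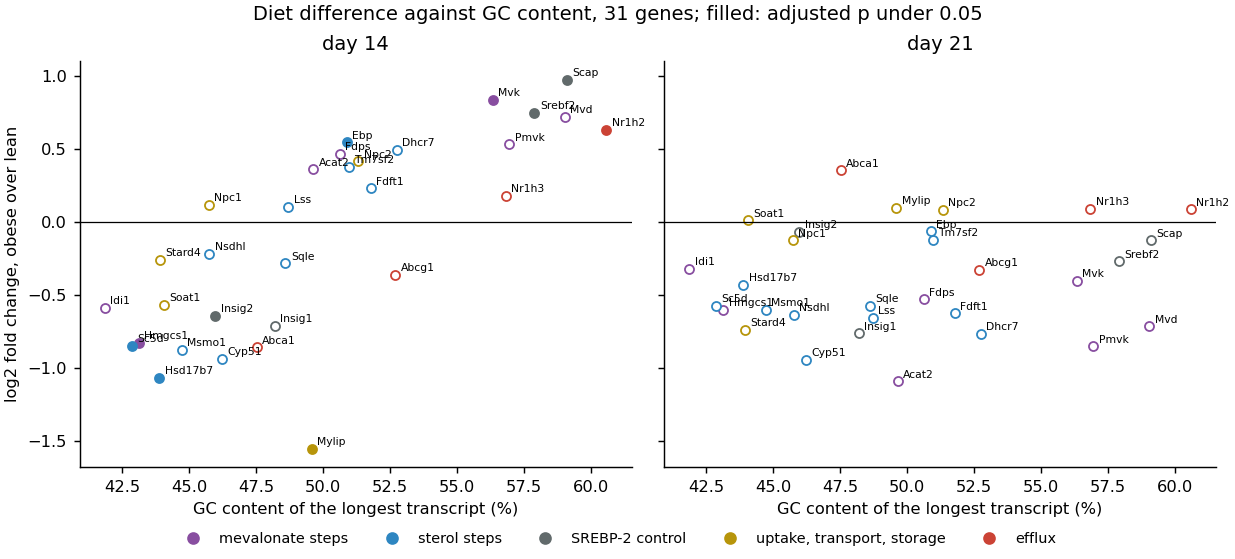
Log2 fold change of obese over lean (vertical axis) against the GC content of the longest transcript (horizontal axis, percent) for the 31 genes at day 14 and day 21; filled points have an adjusted p under 0.05. At day 14 the filled points above 0 lie at 50.9% to 60.6% GC and those below 0 at 42.9% to 49.6%, and at day 21 the synthesis genes lie below 0 across the GC range.

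Whether the diet difference changed between midpoint and endpoint was tested as an interaction. By edgeR's quasi-likelihood test 0 of the 31 genes and 0% of all genes were called, with a smallest adjusted p of 0.0983. Unadjusted p was under 0.05 for 12 of the 31 genes, beside 5451 of all 16352 genes. DESeq2 called 5 of the 31 genes, beside 9.52% of all genes, and limma-voom 12, beside 31.3% of all genes. The largest estimates among the enzymes were -1.46 ± 0.39 (SE) for Acat2, -1.44 ± 0.43 for Mvd, -1.39 ± 0.32 for Pmvk, -1.27 ± 0.31 for Dhcr7 and -1.24 ± 0.39 for Mvk, all with an edgeR adjusted p of 0.0983. These are genes at 49.6% to 59.0% GC. Before correction for GC and length, 13 of 18 synthesis genes had an interaction below 0 (median -0.56) and 2 of 4 efflux genes (median -0.03). With that correction 17 of 18 synthesis genes had an interaction below 0 (median -0.48, all genes 0.12) and 0 of 4 efflux genes (median 0.54), and 0 genes were called. 

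Between midpoint and endpoint in lean mice, 10 of the 31 genes were called, 5 higher and 5 lower at the endpoint, beside 30.9% of all genes (21.4% higher and 9.5% lower). Of all genes called 69.2% were higher, 52.1% without the genes of the mitochondrial genome and 79.5% with the GC and length correction. The mitochondrial share of counts was higher at the endpoint in both diets, and without those genes 13 of the 31 were called in lean mice (36.9% of all) and 26 in obese mice (73.8% of all). Idi1 rose 3.45-fold (adjusted p = 0.000594) and Hmgcs1 3.15-fold (adjusted p = 0.000757), and Stard4, Hsd17b7 and Insig2 also rose. Ebp fell by 0.86 on the log2 scale (adjusted p = 0.00311), and Mvd, Fdps, Tm7sf2 and Npc2 fell by 0.69 to 0.90. The genes that rose had 41.9% to 46.0% GC and those that fell 50.6% to 59.0%. After the GC and length correction 5 genes were called, beside 26.8% of all genes, among them 4 of the 10: Idi1 (log2 fold change 1.79 before and 0.89 after), Hmgcs1 (1.66 and 0.93), Insig2 (0.81 and 0.53) and Ebp (-0.86 and -0.47). The calls of Stard4, Hsd17b7, Mvd, Fdps, Tm7sf2 and Npc2 ended. The median of all genes moved from 0.04 to 0.22 on the log2 scale with it. The synthesis median was -0.32 before it and -0.05 after it, with 11 and 10 of 18 below 0. No efflux gene was called in lean mice.

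Between midpoint and endpoint in obese mice, 26 of the 31 genes were called, 9 higher and 17 lower at the endpoint, beside 73.9% of all genes (37.8% higher and 36.1% lower). Of the 18 enzymes 11 fell and 4 rose. Mvd fell 5.03-fold, Acat2 3.79-fold (adjusted p = 4.87e-06) and Pmvk 3.69-fold (adjusted p = 8.6e-07), with Mvd at 87.9, 181, 125, 73.2 and 189.9 CPM at midpoint and 28.9, 36.0, 24.3, 23.8 and 17.4 CPM at endpoint. Idi1 (4.15-fold) and Hmgcs1 (3.69-fold) rose. Scap fell 3.54-fold, Mylip rose 3.28-fold and Abca1 rose by 1.65 ± 0.48 (SE) on the log2 scale (adjusted p = 0.00417). Here too the split followed GC (r = -0.77 across the 31 genes). After the GC and length correction 25 genes were called, beside 57.5% of all genes, 18 of them among the 26 and in the same direction, while the median of all genes moved to 0.37 and the share of calls that were higher from 51.1% to 73.6%. The calls of Idi1 (log2 fold change 2.05 before and 0.47 after, adjusted p = 0.0892), Pmvk (-1.89 and -0.33, adjusted p = 0.0683), Sc5d (1.08 and -0.11, adjusted p = 0.613) and Abca1 (1.65 and 0.74, adjusted p = 0.196) ended. Among the calls that held, Mvd went from -2.33 to -0.71, Scap from -1.82 to -0.59 and Hmgcs1 from 1.88 to 0.59, whereas Acat2 was at -1.92 and -1.61 and Mylip at 1.72 and 1.97. Beside that median, the synthesis median was -0.60 with 15 of 18 below 0, and the efflux median was 0.59 with 4 of 4 above 0. Nr1h2 and Nr1h3 fell before the correction (-0.99 and -0.84) and rose after it (0.46 and 0.66), and Abcg1 was at -0.21 before and rose by 0.52 after. Acat2, Mvk, Mvd, Fdps, Fdft1, Lss, Tm7sf2, Nsdhl, Ebp, Dhcr7, Srebf2, Scap, Npc1 and Npc2 were called lower under both.

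Levels of the LXR-linked genes were set beside those of macrophage RNA in single libraries, where some were high together and others were not. Obese endpoint replicate 4, with 853 CPM over the 18 macrophage markers, had the highest Abca1 (28.2 CPM) and Mylip (4.68 CPM) of all 18 libraries, and the highest Nr1h3 of its group (19.9 CPM against 7.45 to 10.1 CPM). Lean midpoint replicates 1 to 3, at 589.8 to 632 CPM of macrophage markers, had Mylip at 1.82 to 2.16 CPM, whereas lean midpoint replicate 4, at 274 CPM, had 0.491 CPM. Obese endpoint replicate 5, at a like 273 CPM of markers, had Mylip at 1.99 CPM and Abca1 at 14.0 CPM, above the 6.79 to 11.4 CPM of Abca1 in lean midpoint replicates 1 to 3. Nr1h3 was highest of all libraries in obese midpoint replicate 2 (31.4 CPM), at 271 CPM of markers. Summed over the macrophage markers, the 4 lean midpoint libraries held 525 ± 168 CPM (mean ± SD) and the 5 obese ones 279 ± 76.8 CPM, with 365 ± 82.2 and 342 ± 289 CPM at the endpoint. At the midpoint all 18 markers were below 0 in obese libraries and 6 of them fell, where 12.8% of all genes fell. The part of these markers in the levels of Abca1, Mylip and Nr1h3 was not tested. With the mean of the macrophage markers as a covariate, edgeR called 0 of the 31 genes and 0% of all genes at the midpoint. This fit therefore does not set the 31 genes apart. At the endpoint with this covariate the synthesis median was -0.62 with 18 of 18 below 0.

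**Figure D5:**
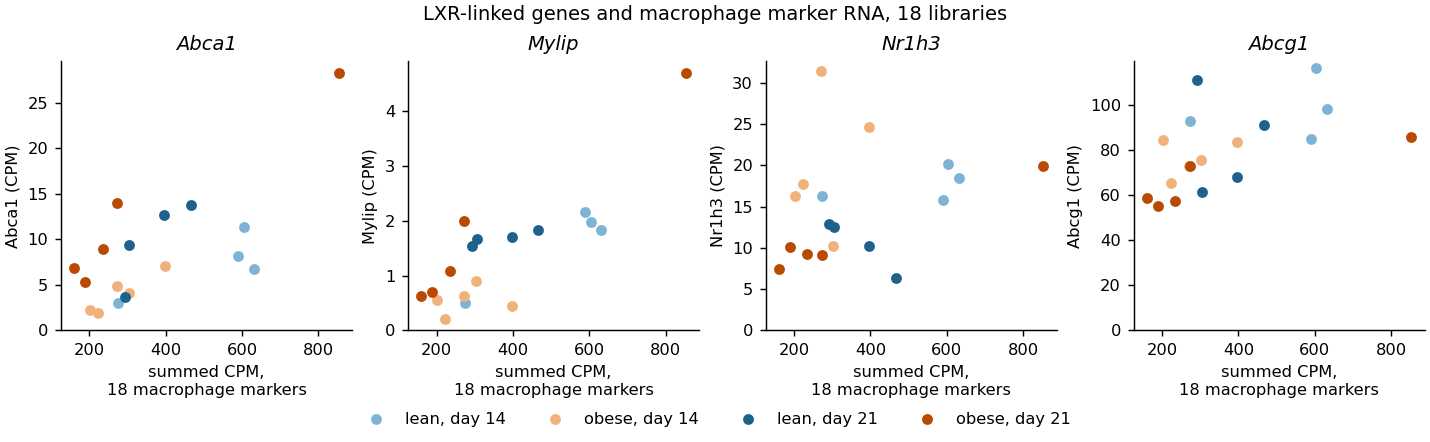
CPM of Abca1, Mylip, Nr1h3 and Abcg1 (vertical axes) against the summed CPM of 18 macrophage markers (horizontal axes) in 18 libraries, coloured by group. The obese day 21 library at 853 CPM of markers has the highest Abca1 and Mylip, at 28.2 and 4.68 CPM, whereas Nr1h3 is highest in obese day 14 libraries.

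Other genes of the pathway were listed by role. They comprised 17 tested genes of synthesis and its branches, 14 of control, 17 of uptake and transport and 12 of efflux. At the endpoint 0 of these 60 genes were called and 36 were below 0, with a median of -0.05. The 17 further synthesis genes did not all go 1 way: 12 were below 0 and 5 above, with a median of -0.15. Only 1 of the 17 was separated lower, beside 1.33% of all genes. The 3 with the smallest p were Acss2, which makes acetyl-CoA from acetate (-0.75 ± 0.30 SE, edgeR adjusted p = 0.989), Cyb5r3, a cytochrome b5 reductase (-0.41 ± 0.17, adjusted p = 0.989), and the cholesterol acyltransferase Soat2 (0.57 ± 0.28, adjusted p = 0.989). Acss2 was at 18.6, 27.2, 13.6 and 14.3 CPM in lean and at 9.01, 16.6, 8.96, 10.8 and 9.27 CPM in obese libraries, which overlap. At the midpoint 29 of 60 were called, 17 higher and 12 lower, beside 29.5% of all genes (16.7% higher and 12.8% lower). They included Arl4c, an LXR target (-0.66 ± 0.16 SE, edgeR adjusted p = 0.0304), and the sterol reductase Lbr (-0.93 ± 0.24, adjusted p = 0.0304). Between the days in lean mice 11 rose and 11 fell, beside 30.9% of all genes called (21.4% higher and 9.5% lower), with Nus1, Ncor1 and Mbtps2 at the smallest p (log2 fold changes of 1.63, 1.53 and 1.99). In obese mice 22 rose and 30 fell, beside 73.9% of all genes called (37.8% higher and 36.1% lower), led by the cholesterol ester hydrolase Nceh1 (2.48 ± 0.26 SE), the corepressor Ncor1 (2.16 ± 0.25) and Ggps1 (2.73 ± 0.33), a prenyl synthase of the mevalonate branch. In the interaction 0 of 60 were called, and Cyb5r3 and Nceh1 were among those with the smallest p.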

How the data were processed

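RNA was sequenced from mCherry-positive cells sorted from E0771 tumors. The authors deposited raw gene counts as whole numbers in 1 table of 19 libraries and 39017 genes. TopHat, DESeq and the mm10 build are named, without versions or roles, per the submitters' processing notes. How reads were counted, and with which annotation, strand setting and filters, is not stated in the sources used here. The table's other deposited values are each gene's Ensembl identifier, position and length. Symbols and transcript GC content came from GENCODE vM21 by identifier, for 37607 genes.

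The tests used edgeR 4.0.16 in R 4.3.3 (filterByExpr, TMM scaling, a mean per group, quasi-likelihood tests) in 18 libraries, with Benjamini-Hochberg adjustment over 16352 genes at 0.05. CPM are scaled by TMM, and arm means are means of log2 CPM with a prior count of 2. Lean endpoint replicate 4 was left out because its counts stop on chromosome 5. DESeq2 1.42.0, limma 3.58.1 and the other alternatives are described in the closing section. The GC and length correction subtracts, in each library, a smooth trend on transcript GC content and on the deposited gene length. That trend is fitted to log2 CPM relative to each gene's mean over the libraries. The fits were tested on simulated data. Groups were compared by whether all libraries of 1 lay beyond all of the other. Across 32 pairs of libraries of 1 group, chi-square per degree of freedom was at least 35.7, so no library repeated another. All 31 genes are named by role. Of the other pathway genes, the 3 with the smallest p in each comparison are named, except 1 that is not reported here. The genes and lists were chosen with earlier results of these data known.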

Additional observations from a re-analysis of the deposited data

Results flagged for a closer look

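In each group of 4 or 5 libraries, the level of each gene and each mean over a group of genes was checked for a single library far from the others, by Dixon's 95% criterion. Of 152 such checks 7 met it, where chance gives about 7.6 (1 in 20). Obese endpoint replicate 4 stood out in 2 genes: Nr1h3 was at 19.9 CPM against 7.45 to 10.1 CPM in the other 4 libraries, and Soat1 at 237 CPM against 194 to 205 CPM. The same library had the highest macrophage marker level of its group, and the part of that in both values was not tested. Obese midpoint replicate 5 had Fdft1 at 128 CPM against 71.6 to 81.6 CPM, and a mean of the control genes of 6.03 log2 CPM against 5.76 to 5.82. The mean of the control genes was also apart in obese endpoint replicate 2, at 5.76 log2 CPM against 5.35 to 5.44. Idi1 was low in lean endpoint replicate 2, at 3.30 CPM against 6.90 to 7.57 CPM. Sqle was high in lean midpoint replicate 4, at 156 CPM against 129.6 to 134 CPM.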

How the results depend on the processing

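The endpoint comparison kept 0 called genes of 31 under each alternative run, and the median of the synthesis genes stayed between -0.66 and -0.52 in those fits on 18 libraries or fewer. With all 19 libraries, in which the zeros of lean endpoint replicate 4 enter as counts, it was -0.26 beside 0.29 for all genes. The genes called then were 0 at the midpoint (0% of all genes) and, between days, 0 in lean mice (3.23%) and 6 in obese mice (25.7%). Midpoint calls numbered 10 (29.5% of all genes), and were 24 by limma-voom with quality weights (51.7% of all), 2 with the GC and length correction (7.16%), and 0 with the 2 midpoint groups fitted alone, with the macrophage mean as a covariate or without obese midpoint replicates 2 and 3 together, the last chosen after seeing the data. In these 3 fits with 0 calls 0% of all genes were called, so the counts moved with those of all genes. Whether replicate numbers pair the samples was not settled. Over 24 same-numbered pairs r ran from -0.40 to 0.55, with 6 over 0.1, and differently numbered pairs were not set beside them. With the replicate block 6 midpoint genes were called (26.9% of all genes). Leaving out 1 library gave 0 to 19 calls at the midpoint (0% to 48.8% of all genes) and 0 to 0 at the endpoint (0% to 0.00615%). In the interaction it gave 0 to 11 (11 without obese midpoint replicate 1, beside 34.8% of all genes). Between days it gave 5 to 14 in lean mice (19.5% to 38.8% of all genes) and 25 to 28 in obese mice (70.8% to 76.2%). The lean count was 5 without lean endpoint replicate 3 (20.7%) and 6 without lean midpoint replicate 1 (19.5%) or 4 (20.2%). The interaction gave 5 calls with DESeq2 (9.52% of all genes) and 12 with limma-voom (31.3%), and its median over all genes moved to 0.10 with DESeq2-type size factors and to 0.13 without mitochondrial genome genes. The lean comparison between days gave 5 with the GC and length correction (26.8% of all genes). That correction turned the direction of Nr1h2 at the midpoint (-0.15) and, between days in obese mice, of Msmo1 (-0.58), Sc5d (-0.11), Stard4 (-0.83), Soat1 (-0.44), Nr1h2 (0.46), Nr1h3 (0.66) and Abcg1 (0.52). Directions that differ where no fit called the gene are not counted as turned. Synthesis minus efflux, obese minus lean, was 0.0092 at the midpoint (-0.19 to 0.21 without 1 library, 0.76 with Abca1, Abcg1 and Mylip as the efflux arm, 0.48 with Abca1 and Abcg1, 0.41 with the GC and length correction) and -0.61 at the endpoint (-0.73 to -0.41). The cause of these changes was not tested. Depth limits genes at a few CPM, such as Mylip, at 0.217 to 4.68 CPM.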

Other observations

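Lean endpoint replicate 4, left out above, has counts for 7 of the 31 genes on chromosomes 1 to 4. Scaled to the counts of those chromosomes alone, the mevalonate enzyme Pmvk was at 414 per 1000000 counts in it, against 190.5 to 297 in the other lean and 90.7 to 174 in the obese endpoint libraries. Fdps was at 547, against 175 to 426 and 146 to 258. Hsd17b7 was at 409, against 206 to 337 and 171 to 232. These 3 enzymes were thus above every other endpoint library in that library. Abca1 (32.6, against 19.3 to 67.2 and 27.2 to 134), Nr1h3, Insig2 and Soat1 were inside the range of the other lean endpoint libraries. No test was made with this library.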
